A study of Homo sapiens with 15 samples.

Results

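The ATF4 integrated stress response (ISR) genes described here are the transcription factor ATF4, other regulators of the same program and genes for amino acid synthesis, amino acid uptake and growth control that are known as its targets. They were taken by gene symbol from a list of 35, and 33 of them had a row among the 20468 genes of each table. MTHFD2 and SLC1A5 are on the list and were not analysed here. RNA-Seq was made from the human multiple myeloma (MM) cell lines MM.1S and RPMI8226 in 15 libraries. Cells in monoculture (MONO) were compared with cells of the upper transwell (TSW), which a membrane kept apart from the HS5 line of human bone marrow stromal cells, and with cells of the lower chamber (CO), which shared the well floor with HS5 cells. MM.1S had 3 libraries in each condition and RPMI8226 had 2. TSW against MONO asks what changed without contact with stroma, CO against MONO what changed with contact, and CO against TSW what contact added.

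Some limits of the model hold for every comparison with MONO. The wells of the coculture held MM cells on both sides of the membrane and HS5 cells below, in a larger volume of medium, whereas MONO wells held MM cells alone. The stroma, the number of cells in the well and the medium therefore changed together and cannot be told apart. The methods name a trypsin step for the coculture conditions, and all cells were sorted as CD90- and CD38+ before RNA was taken. Nothing in the labels says that replicates were separate cultures, so the p-values measure the spread between these libraries, which may be technical. In these bulk samples a larger share of responding cells and more RNA per cell cannot be told apart.

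In the integrated stress response, kinases that sense a shortage of amino acids or heme, unfolded protein in the endoplasmic reticulum or viral RNA phosphorylate the initiation factor eIF2. Most protein synthesis then slows while translation of the ATF4 mRNA increases, so an mRNA level of ATF4 is not a level of its protein. ATF4 pairs with C/EBP and AP-1 proteins at C/EBP-ATF response elements and raises the transcription of genes for amino acid supply and tRNA charging. Plasma cells and MM cells secrete large amounts of immunoglobulin and are known to lean on this response.

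Expression is given as RPKM, the read pairs of a gene per kilobase of its exons, scaled to the read pairs of the library on genes. The depth recovered from the values was between 9008977 read pairs in MM.1S MONO replicate 1 and 19050772 in MM.1S MONO replicate 2. Tests were made with limma on log2(RPKM + 1), and fold changes are on this scale, which understates the change of genes with low RPKM. A gene was tested in a line with a mean RPKM of at least 1 over its libraries, and calls needed a p under 0.05 after Benjamini-Hochberg adjustment over all tested genes, and a fold change over 1.5. There were 10153 genes to test in MM.1S and 10319 in RPMI8226.

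Some libraries stood apart on genes outside the program. The ribosomal pseudogene RPS14P3 had an RPKM of 84.2 in MM.1S MONO replicate 2 and of 94.8 and 93.6 in the RPMI8226 TSW libraries, and between 2.20 and 6.44 in the other 12 libraries. The mitochondrial tRNA gene trnN had 1.44 in MM.1S MONO replicate 2 and 2.22 and 1.53 in the RPMI8226 TSW libraries, against 82.3 to 587 in the others. Both RPMI8226 TSW libraries share this feature, so in that line it cannot be told apart from the TSW condition. They also enter the filter and the spread of CO against MONO, which is tested in the same fit. A fit of CO and MONO alone called 18 ISR genes higher and 1 lower in RPMI8226, the same numbers as the fit of 3 conditions below. MM.1S MONO replicate 1 was the library with the fewest read pairs. Counts of ISR genes called in MM.1S are also given without these MONO libraries below.

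Plasma cell markers were present in every library. Of 11 listed, 10 were found, with JCHAIN, the joining chain of secreted antibodies, as the most abundant. Their summed RPKM was 5752, 4847 and 5105 in MONO, 3929, 3818 and 3810.3 in TSW and 3602, 3728 and 3423 in CO of MM.1S, so coculture lay below MONO. In RPMI8226 it was 2416 and 2327 in MONO, 4359.6 and 4176 in TSW and 4463 and 4376 in CO, so coculture lay above. Most of the sum was JCHAIN in every library. In MM.1S, JCHAIN had 4102, 3402 and 3754 in MONO, 2134, 1966 and 2125 in TSW and 2020, 2010 and 1924 in CO. The sums therefore mainly follow JCHAIN, and single markers moved in both directions, as given below. Stromal markers, which HS5 cells could bring into a sort, were a list of 38 genes. In MM.1S their summed RPKM was 8.25, 10.9 and 11.3 in MONO, 6.77, 7.96 and 7.91 in TSW and 195, 211 and 177 in CO. The collagenase MMP1 was the most abundant in CO of MM.1S with RPKM values of 44.5, 46.9 and 41.04, and it had no read pair in MONO or TSW of either line. RPMI8226 cells express fibronectin (FN1) themselves, with the highest RPKM of the list in each of their libraries, and FN1 fell there (-1.19 in TSW and -0.99 in CO). The summed RPKM in RPMI8226 was therefore lower in coculture, with 4013 and 4334 in MONO, 1719.7 and 2005 in TSW and 2189.9 and 2424 in CO. Without FN1 it was 23.4 and 24.1 in MONO, 41.6 and 43.2 in TSW and 182 and 255 in CO. Listed markers without a read pair in all MONO and TSW libraries numbered 16 in each line and included MMP1, COL1A2 and TFPI2. The gene of the sorted stromal antigen, THY1, had 22, 18 and 15 read pairs in the CO libraries of MM.1S, 3 and 5 in those of RPMI8226, and at most 2 in any other library. Stromal RNA was thus measured in CO, and its part in the CO values below was not tested. The TSW sum of MM.1S was not above its MONO sum, whereas that of RPMI8226 without FN1 was. Of 15 stromal markers tested in RPMI8226, 3 were called higher and 1 lower in TSW, against 14.5% and 17.9% of all tested genes. The 3 were CXCL8 (2.04), CXCL12 (0.79) and LOX (0.68), and FN1 was the lower one. CXCL8 and LOX passed the filter through coculture, with a MONO mean under 1.

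Most ISR genes were higher in both coculture positions than in MONO. In MM.1S, 29 of the 33 genes passed the filter, and TSW against MONO called 26 of them higher and 1 lower, where 6.48% of all tested genes were called higher and 4.16% lower. CO against MONO called 21 higher and 1 lower in MM.1S, with 7.13% and 4.65% of all tested genes. In RPMI8226, 29 genes passed as well, of which 23 were called higher and 1 lower in TSW, against 14.5% and 17.9% of all genes. CO of RPMI8226 had 18 higher and 1 lower, against 16.4% and 22.9%. TSW against MONO and CO against MONO share the MONO libraries of a line. The median log2 fold change of the ISR genes tested was 1.32 in TSW and 0.92 in CO of MM.1S, and 1.10 and 1.11 in RPMI8226. Over all tested genes these medians were 0.01, 0.01, -0.08 and -0.09. A few genes passed the filter through coculture libraries, since VLDLR and GDF15 in MM.1S and CHAC1 in RPMI8226 had a MONO mean under 1.

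Leaving out MM.1S MONO replicate 1 or replicate 2 left the same 26 genes called higher in TSW. In CO, leaving out replicate 1 gave 21, with SLC7A1 lost and EIF4EBP1 gained, and leaving out replicate 2 gave 22, with VLDLR gained. Leaving out replicate 3 lost EIF4EBP1 in TSW, and in CO lost CEBPB and gained VLDLR. For each library the median over the tested ISR genes was taken of log2(RPKM + 1) minus the MONO mean. In MM.1S it was 0.00, 0.07 and -0.05 in MONO, 1.25, 1.37 and 1.29 in TSW and 0.83, 1.05 and 0.93 in CO. RPMI8226 gave -0.01 and 0.01 in MONO, 1.19 and 0.84 in TSW and 1.26 and 1.002 in CO. Every coculture library lay above every MONO library of its line, and in MM.1S each TSW library lay above each CO library, while in RPMI8226 the TSW and CO libraries overlapped.

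**Figure D1:**
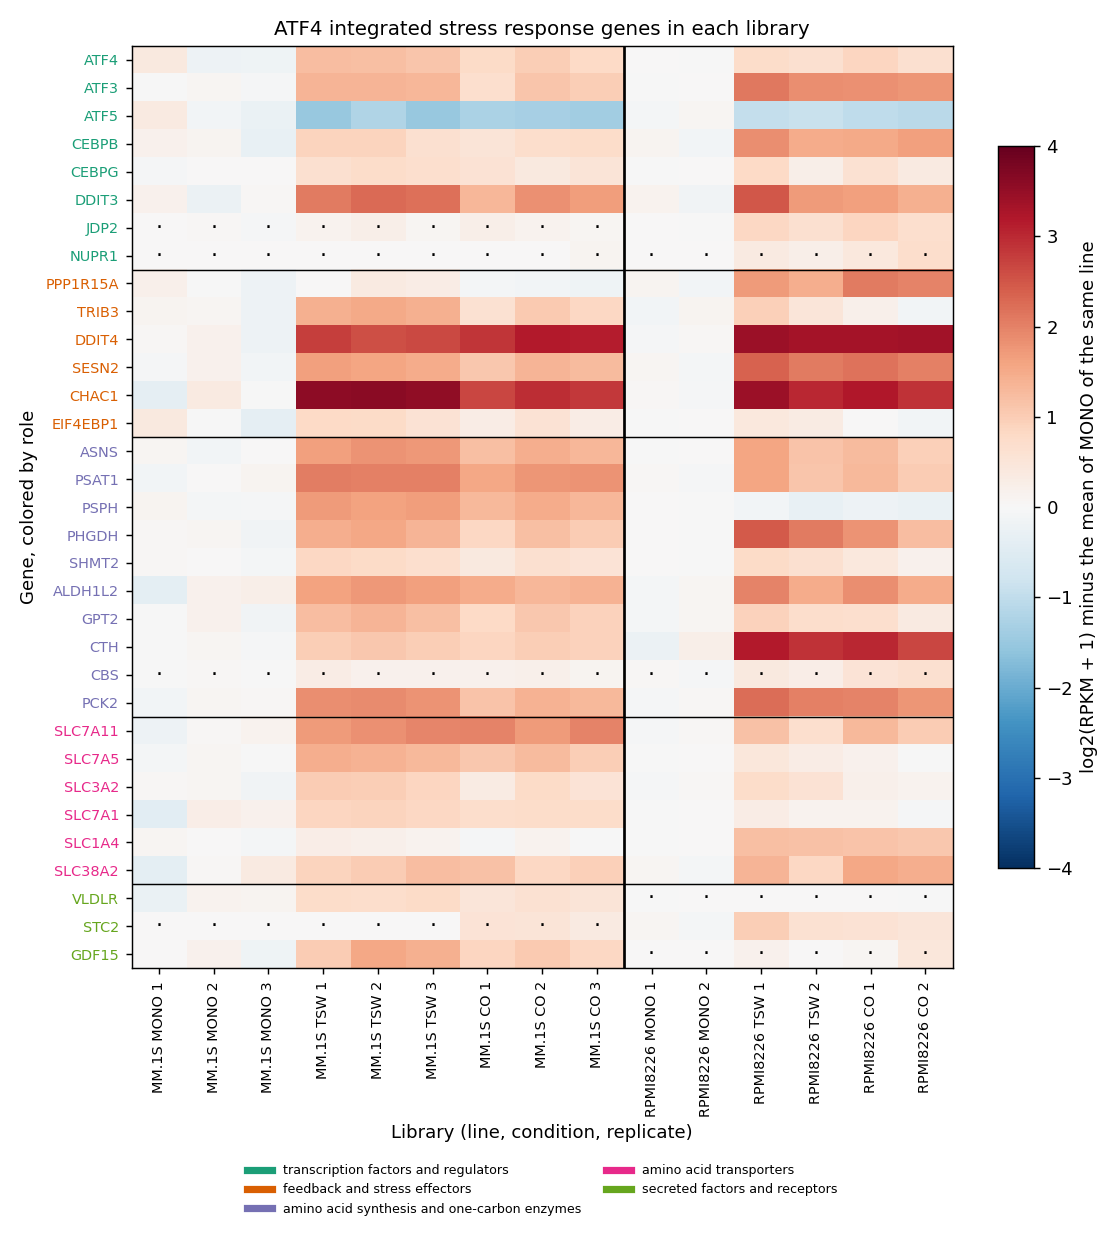
Expression of the 33 ISR genes (rows, names colored by role) in the 15 libraries (columns), as log2(RPKM + 1) minus the mean of MONO of the same line, with red above and blue below that mean. Dots mark genes not tested in a line, and the red block over TSW and CO with the blue row of ATF5 is the pattern to see.

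Among genes tested in both lines, 24 ISR genes were called higher in TSW of MM.1S and 21 in TSW of RPMI8226, and 19 were called in both, which is 79.2% and 90.5% of them. For CO these counts were 20, 17 and 15, or 75.0% and 88.2%. Over all 9397 genes tested in both lines, 327 were called higher in TSW of both, 54.7% of the calls in MM.1S and 25.8% of those in RPMI8226. In CO they were 390, or 59.8% and 26.9%. The lines share no library.

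Promoter sequences (RefSeq, build GRCh38.p14) stood under the symbols of 26 of the 33 genes in the table used. NUPR1, EIF4EBP1, PSPH, SHMT2, ALDH1L2, GPT2 and SLC7A11 had none under their symbols there and were not searched. The core of the C/EBP-ATF response element, TGATGNAA, was searched on both strands in the 250 bases before each annotated start. At least 1 match was found in 5 of the 26 genes, 19.2%, and in 3.89% of all 27305 genes with such sequences. A gene can have several annotated starts. Counted by start, 5 of 43 had a match among the ISR genes, 11.6%, and 3.14% of 35116 among all genes. The matches are a description and not binding sites, and a gene without a match lacks only these letters in this stretch. All 5 were among the genes called higher in at least 1 of the 4 comparisons with MONO, as were 30 of the 33. Each window of 60 bases is written from 5′ to 3′ on the strand of its gene, with the match in capitals. In CHAC1 the match lies on the opposite strand. The windows are CHAC1 at chr15:40953236-40953295 (+), ASNS at chr7:97872443-97872502 (-), ATF3 at chr1:212565190-212565249 (+), CEBPG at chr19:33374045-33374104 (+) and JDP2 at chr14:75427962-75428021 (+). The match began 209 bases before the annotated start in CHAC1, 68 in ASNS, 191 in ATF3, 42 in CEBPG and 16 in JDP2. In ASNS, CEBPG and JDP2 this start lies inside the gene and not at its first base.
CHAC1: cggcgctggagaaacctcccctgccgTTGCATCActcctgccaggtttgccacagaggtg
ASNS: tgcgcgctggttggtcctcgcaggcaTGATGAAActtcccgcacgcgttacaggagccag
ATF3: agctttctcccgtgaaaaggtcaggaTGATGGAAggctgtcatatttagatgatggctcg
CEBPG: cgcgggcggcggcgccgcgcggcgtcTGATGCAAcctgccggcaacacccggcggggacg
JDP2: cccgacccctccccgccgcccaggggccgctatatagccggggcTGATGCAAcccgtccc

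Among the transcription factors, ATF4 (Entrez gene 468) itself was higher in coculture. Its RPKM in MM.1S was 205, 135 and 139 in MONO, 373, 366 and 336 in TSW and 265, 313 and 274 in CO. RPMI8226 had 157 and 154 in MONO, 259.7 and 243 in TSW and 286 and 242 in CO. All coculture libraries lay above all MONO libraries of their line, with MM.1S MONO replicate 1 the highest of the MONO libraries. In MM.1S the log2 fold change was 1.19 (SE 0.15, adjusted p = 0.000270, limma) in TSW and 0.85 (SE 0.15, adjusted p = 0.00230) in CO. In RPMI8226 it was 0.69 (SE 0.083, adjusted p = 3.77e-05) and 0.75 (SE 0.083, adjusted p = 1.49e-05).

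DDIT3 (Entrez gene 1649) encodes CHOP, a C/EBP-related factor that drives cell death under lasting stress. MM.1S had RPKM values of 5.52, 3.85 and 4.99 in MONO, 23.3, 26.5 and 25.5 in TSW and 13.4, 19.2 and 17.2 in CO. RPMI8226 had 5.18 and 3.99 in MONO, 30.03 and 17.3 in TSW and 16.3 and 13.8 in CO. The MONO values did not overlap with coculture in either line, and the TSW values of RPMI8226 were wide apart. DDIT3 rose by a log2 value of 2.18 in TSW and 1.60 in CO of MM.1S (SE 0.14, adjusted p = 2.27e-06 and 1.90e-05). In RPMI8226 it rose by 2.10 and 1.53 (SE 0.20, adjusted p = 8.31e-06 and 6.44e-05).

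ATF3 (Entrez gene 467), a stress-induced factor of the ATF/CREB family whose window with the element is shown above, was higher in coculture in both lines. Its RPKM in MM.1S was 10.2, 11.1 and 9.99 in MONO, 28.2, 28.5 and 27.7 in TSW and 17.4, 23.4 and 21.4 in CO. In RPMI8226 MONO it was 1.88 and 2.001, with 11.6 and 9.57 in TSW and 9.46 and 9.05 in CO. MONO and coculture did not overlap. The log2 fold changes were 1.35 in TSW and 0.92 in CO of MM.1S, and 1.97 and 1.80 in RPMI8226, with adjusted p between 1.02e-07 and 0.000145.

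CEBPB (Entrez gene 1051), a C/EBP factor that pairs with ATF4, had RPKM values in MM.1S of 5.16, 4.88 and 3.40 in MONO, 9.05, 9.14 and 7.41 in TSW and 6.69, 7.79 and 7.96 in CO. Values in RPMI8226 were 3.69 and 3.08 in MONO, 14.9 and 11.1 in TSW and 11.4 and 12.6 in CO. No MONO library reached a coculture library of its line. The log2 fold change was 0.81 (SE 0.14, adjusted p = 0.00199) in TSW and 0.64 (adjusted p = 0.00671) in CO of MM.1S, the latter just past the fold threshold. Without MM.1S MONO replicate 3 it was 0.49 in CO (adjusted p = 0.0116), and with quantile normalization 0.56 (adjusted p = 0.0174), both under the fold threshold. In RPMI8226 it was 1.67 and 1.57 (SE 0.13, adjusted p = 1.69e-06 and 1.88e-06).

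ATF5 (Entrez gene 22809) moved the other way. ATF5 is a factor related to ATF4 whose mRNA is also translated more under eIF2 phosphorylation, and it is named after its values were seen. In MM.1S its RPKM was 10.9, 7.58 and 6.78 in MONO, 2.24, 3.04 and 2.21 in TSW and 2.89, 2.68 and 2.52 in CO. In RPMI8226 it was 8.51 and 9.64 in MONO, 4.15 and 4.45 in TSW and 3.99 and 3.75 in CO. Every coculture library lay below every MONO library of its line. The log2 fold changes were -1.41 (SE 0.16, adjusted p = 9.63e-05) and -1.33 (adjusted p = 0.000149) in TSW and CO of MM.1S. They were -0.93 (SE 0.097, adjusted p = 1.40e-05) and -1.05 (adjusted p = 4.12e-06) in RPMI8226. It was the only ISR gene called lower against MONO in these 4 comparisons.

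CEBPG, which forms heterodimers with ATF4, was called higher in TSW of MM.1S at a log2 of 0.68 (adjusted p = 0.000233). In the other comparisons with MONO its log2 fold changes lay between 0.49 and 0.53, under the fold threshold. It was called in TSW of RPMI8226 without TSW replicate 2 (0.81) and in CO without CO replicate 2 (0.61). JDP2, an AP-1 repressor, passed the filter in RPMI8226 alone and had a log2 fold change of 0.73 in TSW and 0.76 in CO, both called. In MM.1S its RPKM was at most 0.256. NUPR1, a small stress-induced chromatin protein, was not tested in either line. It had 0 read pairs in the MONO libraries of both lines, 5 and 3 in TSW and 5 and 11 in CO of RPMI8226, and 1 in a single CO library of MM.1S.

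The feedback and stress effectors held the largest changes. CHAC1 (Entrez gene 79094) degrades glutathione and is a sensitive target of ATF4 and CHOP. Its RPKM in MM.1S was 1.85, 3.73 and 2.66 in MONO, 42.7, 43.8 and 42.2 in TSW and 22.3, 27.7 and 24.9 in CO. RPMI8226 started at 0.514 and 0.390 in MONO, from 10 and 9 read pairs, then 14.6 and 10.6 in TSW and 12.5 and 9.82 in CO. The conditions of MM.1S did not overlap, with TSW the highest, whereas TSW and CO of RPMI8226 overlapped. In MM.1S the log2 fold change was 3.58 (SE 0.16, adjusted p = 1.22e-07) in TSW, the rank 5 increase among 10153 genes, and 2.82 (adjusted p = 4.88e-07) in CO. In RPMI8226 it was 3.21 (SE 0.15, adjusted p = 4.43e-08), at rank 43 of 10319, and 3.06 (adjusted p = 4.46e-08).

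DDIT4 (Entrez gene 54541), also called REDD1, inhibits mTORC1. MM.1S had RPKM values of 18.6, 20.4 and 15.5 in MONO, 128, 114 and 119 in TSW and 138, 172 and 167 in CO. RPMI8226 had 39.9 and 43.3 in MONO, 458 and 428 in TSW and 428 and 433 in CO. CO lay above TSW in all MM.1S libraries, unlike most ISR genes, and MONO was far below both. Its log2 fold changes were 2.66 and 3.06 in TSW and CO of MM.1S (SE 0.12, adjusted p = 1.24e-07 and 2.39e-08). Those in RPMI8226 were 3.38 and 3.34 (SE 0.069, adjusted p = 1.86e-10 and 1.82e-10), or 10.4-fold and 10.1-fold.

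SESN2 (Entrez gene 83667), a leucine sensor that restrains mTORC1, had RPKM values in MM.1S of 7.80, 9.28 and 7.50 in MONO, 27.5, 26.5 and 24.6 in TSW and 18.4, 22.3 and 20.9 in CO. RPMI8226 values were 5.06 and 4.42 in MONO, 28.5 and 23.4 in TSW and 25.05 and 22.4 in CO. MONO was below coculture without overlap. The log2 fold change in TSW was 1.57 in MM.1S and 2.23 in RPMI8226, and in CO it was 1.23 and 2.11, each called with an adjusted p of at most 1.38e-05.

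TRIB3 (Entrez gene 57761), a pseudokinase that damps ATF4 and CHOP activity, was higher in TSW of both lines. In MM.1S its RPKM was 18.7, 18.2 and 14.9 in MONO, 48.3, 51.4 and 48.2 in TSW and 26.7, 36.5 and 31.1 in CO. RPMI8226 gave 19.4 and 22.3 in MONO, 41.4 and 29.5 in TSW and 24.1 and 19.1 in CO. In RPMI8226 the CO libraries overlapped with MONO, and TSW was higher than both. The log2 fold changes were 1.47 (adjusted p = 1.13e-05) in TSW and 0.82 (adjusted p = 0.000734) in CO of MM.1S. In RPMI8226 TSW gave 0.72 (SE 0.15, adjusted p = 0.00175) and CO gave 0.04 (adjusted p = 0.823). Without RPMI8226 TSW replicate 1 the TSW value was 0.48 (adjusted p = 0.0173), under the fold threshold.

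PPP1R15A (Entrez gene 23645), or GADD34, guides protein phosphatase 1 to eIF2 and so ends the response. MM.1S had RPKM values of 21.5, 18.2 and 16.04 in MONO, 18.7, 24.1 and 23.1 in TSW and 17.3, 17.2 and 16.2 in CO. RPMI8226 had 1.75 and 1.33 in MONO, 7.27 and 5.97 in TSW and 9.67 and 8.93 in CO. In MM.1S the MONO values overlapped with both TSW and CO, and in RPMI8226 the 3 conditions were separate. Neither comparison was called in MM.1S, with log2 fold changes of 0.23 (SE 0.12, adjusted p = 0.188) in TSW and -0.12 (adjusted p = 0.463) in CO. In RPMI8226 both were called, at 1.58 (SE 0.12, adjusted p = 1.21e-06) and 2.02 (adjusted p = 1.47e-07). EIF4EBP1, which blocks cap-dependent translation, was called in TSW of MM.1S alone, at a log2 of 0.71 (adjusted p = 0.0105), and its other values against MONO lay between -0.05 and 0.39. That call was lost without MM.1S MONO replicate 3 (0.53), and CO of MM.1S was called without MONO replicate 1 (0.59).

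**Figure D2:**
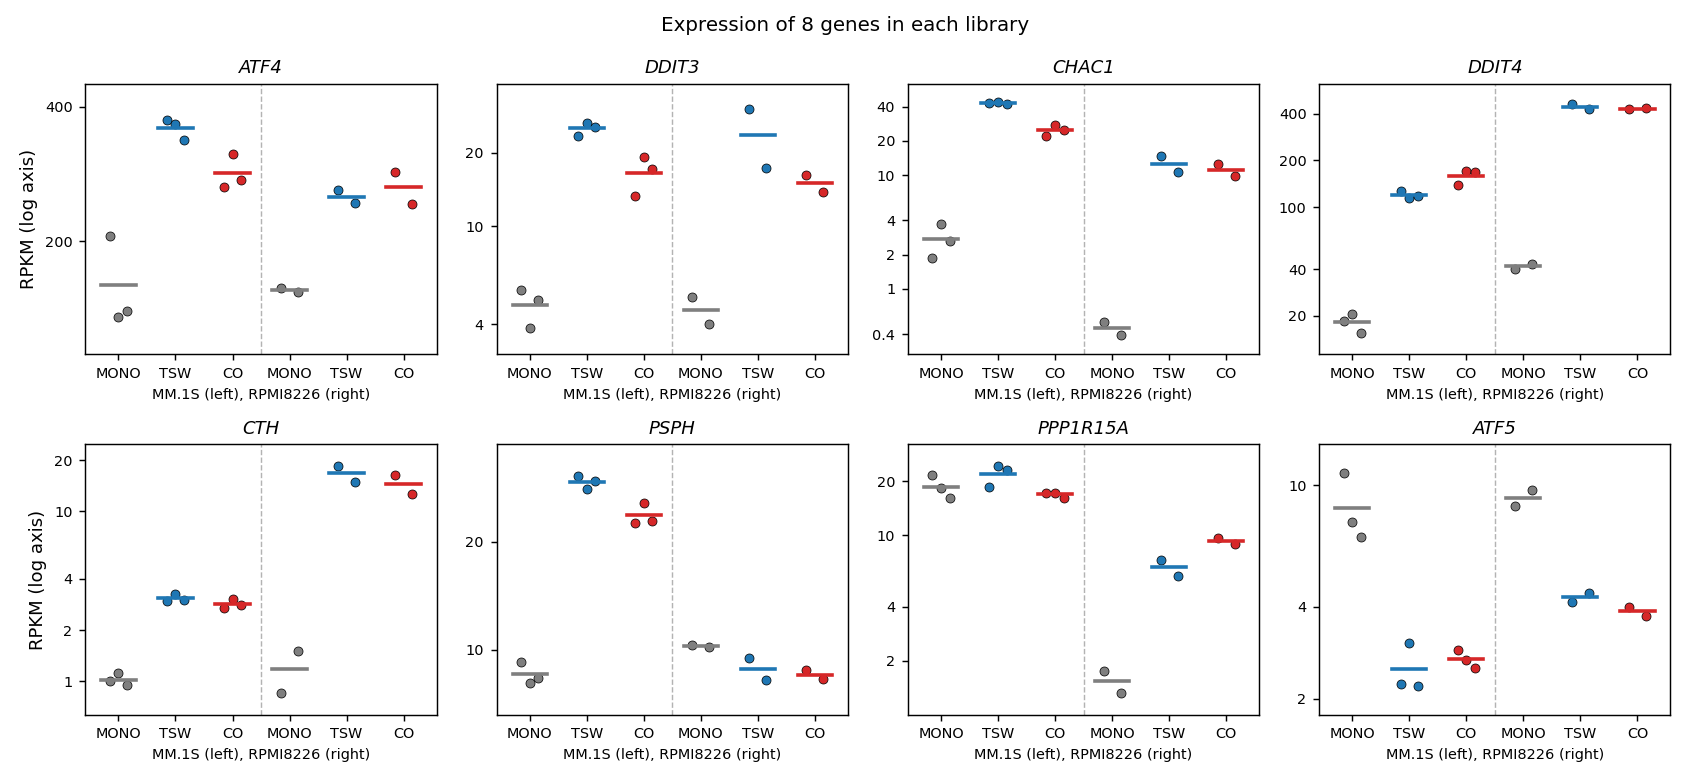
RPKM of ATF4, DDIT3, CHAC1, DDIT4, CTH, PSPH, PPP1R15A and ATF5 on log axes, with a point for each library, a bar for the mean of its group, and MONO, TSW and CO of MM.1S left and RPMI8226 right of the dashed line. CHAC1 and DDIT4 rose in both lines, PSPH rose in MM.1S and PPP1R15A in RPMI8226, and ATF5 fell in both.

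Of the enzymes of amino acid synthesis and one-carbon metabolism, 9 were tested in each line. TSW called all 9 higher in MM.1S and 8 in RPMI8226, and CO called 8 and 6, against 6.48% and 7.13% of all tested genes in TSW and CO of MM.1S and 14.5% and 16.4% in RPMI8226. ASNS (Entrez gene 440), asparagine synthetase, has the element close to an annotated start as shown above. Its RPKM in MM.1S was 49.04, 42.6 and 46.6 in MONO, 146, 162 and 154 in TSW and 107, 128 and 117 in CO. Values in RPMI8226 were 56.5 and 58.8 in MONO, 173 and 127 in TSW and 139 and 112 in CO. MONO stayed below coculture in all libraries. ASNS rose by a log2 value of 1.72 in TSW and 1.33 in CO of MM.1S (SE 0.097, adjusted p = 6.81e-07 and 3.72e-06), and by 1.35 and 1.11 in RPMI8226 (SE 0.14, adjusted p = 1.03e-05 and 3.33e-05).

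Serine is made from a glycolytic intermediate by PHGDH, PSAT1 and PSPH in sequence. PHGDH (Entrez gene 26227) had RPKM values in MM.1S of 9.18, 9.40 and 7.90 in MONO, 26.00, 27.8 and 24.2 in TSW and 16.5, 21.7 and 18.7 in CO, and in RPMI8226 of 5.42 and 5.37 in MONO, 33.7 and 26.2 in TSW and 21.2 and 13.99 in CO. TSW was above CO and CO above MONO in both lines, with no overlap. The log2 fold change was 1.46 and 1.02 in TSW and CO of MM.1S, and 2.26 and 1.51 in RPMI8226, with adjusted p of at most 0.000104. PSAT1 (Entrez gene 29968) in MM.1S had 50.2, 54.6 and 59.2 in MONO, 227, 224 and 226 in TSW and 163, 188 and 192 in CO, and in RPMI8226 35.1 and 32.7 in MONO, 103 and 75.01 in TSW and 84.00 and 69.6 in CO. MONO was the lowest condition of both lines without overlap. The log2 fold changes of PSAT1 were 2.03 and 1.71 in MM.1S and 1.35 and 1.15 in RPMI8226, with adjusted p of at most 2.46e-05.

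PSPH (Entrez gene 5723), the last enzyme of this route, responded in MM.1S. Its RPKM there was 9.24, 8.11 and 8.35 in MONO, 30.4, 28.1 and 29.5 in TSW and 22.5, 25.6 and 22.8 in CO. The RPMI8226 values were 10.3 and 10.2 in MONO, 9.47 and 8.24 in TSW and 8.78 and 8.28 in CO, so the coculture libraries lay slightly below MONO. In MM.1S the log2 fold change was 1.67 (SE 0.090, adjusted p = 5.19e-07) in TSW and 1.37 (adjusted p = 1.74e-06) in CO. In RPMI8226 it was -0.19 (SE 0.091, adjusted p = 0.0848) and -0.24 (adjusted p = 0.0367), both under the fold threshold.

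CTH (Entrez gene 1491), which makes cysteine from cystathionine, had the larger change in RPMI8226, by the test of the difference given below. MM.1S had RPKM values of 1.01, 1.12 and 0.952 in MONO, 2.99, 3.27 and 3.01 in TSW and 2.70, 3.04 and 2.80 in CO. RPMI8226 had 0.854 and 1.52 in MONO, 18.5 and 14.9 in TSW and 16.4 and 12.7 in CO. Coculture was above MONO in each line, with no overlap. The log2 fold change was 1.01 (SE 0.089, adjusted p = 1.66e-05) and 0.92 (adjusted p = 3.21e-05) in TSW and CO of MM.1S. It was 3.03 (SE 0.16, adjusted p = 1.24e-07) and 2.83 (adjusted p = 1.31e-07) in RPMI8226. CBS, the enzyme before CTH in this route, was under the filter in both lines, with RPKM of at most 0.243 in MM.1S, 0.407 and 0.312 in MONO, 0.797 and 0.644 in TSW and 0.976 and 1.12 in CO of RPMI8226.

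PCK2 (Entrez gene 5106), the mitochondrial phosphoenolpyruvate carboxykinase, had RPKM values in MM.1S of 1.77, 2.10 and 2.05 in MONO, 9.89, 10.1 and 9.35 in TSW and 5.60, 6.80 and 6.24 in CO. In RPMI8226 they were 4.40 and 4.74 in MONO, 24.96 and 21.4 in TSW and 21.2 and 17.9 in CO. The 3 conditions were separate in both lines, in the order TSW, CO and MONO from high to low. The log2 fold changes were 1.86 and 1.28 in TSW and CO of MM.1S, and 2.11 and 1.88 in RPMI8226, with adjusted p of at most 6.12e-06. ALDH1L2, a mitochondrial folate enzyme, was called higher in all of these comparisons, with log2 fold changes between 1.40 and 1.73. GPT2, which makes alanine, was called in TSW of both lines (1.26 and 0.81) and in CO of MM.1S (0.93), and CO of RPMI8226 was at 0.52 and was called without MONO replicate 2 (0.59) or CO replicate 2 (0.67). SHMT2, which moves the carbon of serine into the folate pool of mitochondria, was called in TSW at 0.75 and 0.70, while its CO values of 0.53 and 0.29 were under the fold threshold, and without CO replicate 1 it was called in CO of MM.1S (0.60).

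Of 6 amino acid transporter genes tested in each line, TSW called 5 higher in MM.1S and 4 in RPMI8226, and CO called 4 and 3. Of all tested genes 6.48% and 7.13% were called higher in TSW and CO of MM.1S, and 14.5% and 16.4% in RPMI8226. SLC7A11 (Entrez gene 23657), the cystine importer xCT, had RPKM values in MM.1S of 0.778, 1.08 and 1.26 in MONO, 5.65, 6.15 and 6.89 in TSW and 7.10, 5.67 and 7.03 in CO. In RPMI8226 it had 1.29 and 1.49 in MONO, 4.39 and 2.84 in TSW and 4.82 and 3.78 in CO. TSW and CO overlapped in both lines, and both lay above MONO. The log2 fold changes were 1.83 (SE 0.12, adjusted p = 2.74e-06) and 1.90 (adjusted p = 1.71e-06) in MM.1S, and 0.93 (SE 0.16, adjusted p = 0.000431) and 1.14 (adjusted p = 8.20e-05) in RPMI8226.

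SLC7A5 and SLC3A2 encode the light and heavy chains of LAT1, a transporter of large neutral amino acids. SLC7A5 had an RPKM of 73.5 to 81.8 in MONO and 189 to 212 in TSW of MM.1S, with log2 fold changes of 1.38 in TSW and 1.12 in CO, both called. In RPMI8226 its MONO range was 119 to 121, and the changes of 0.37 and 0.08 were not called. SLC3A2 was called in TSW of both lines (0.96 and 0.67) and in CO of neither (0.54 and 0.16), though in MM.1S it was without CO replicate 1 (0.64). SLC7A1, which imports arginine and lysine, was called in MM.1S at 0.86 in TSW and 0.72 in CO, and in RPMI8226 it was at 0.22 and 0.05. Without MM.1S MONO replicate 1 its CO value was 0.51, under the fold threshold. SLC1A4, a carrier of alanine, serine and cysteine, was at 0.19 and 0.03 in MM.1S and was called in RPMI8226 at 1.17 and 1.10. Its MONO range was 167 to 185 in MM.1S and 69.3 to 72.2 in RPMI8226. SLC38A2, a sodium-coupled carrier of small neutral amino acids, was called in TSW (1.05 and 1.10) and CO (0.996 and 1.49) of both lines.

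The secreted factors and receptors were low in at least 1 line. GDF15, a stress-induced cytokine, had RPKM values in MM.1S of 0.278, 0.437 and 0.126 in MONO, 1.58, 2.69 and 2.41 in TSW and 1.29, 1.63 and 1.27 in CO, from 3, 10 and 2 read pairs in MONO. It was called there at 1.32 in TSW and 0.91 in CO, having passed the filter through coculture, and RPMI8226 had at most 8 read pairs in a library. VLDLR, the receptor for very low density lipoprotein, was called in TSW of MM.1S (0.74) and was at 0.53 in CO, while RPMI8226 had at most 2 read pairs in a library. STC2, the secreted glycoprotein stanniocalcin 2, was called in TSW of RPMI8226 (0.79) and was at 0.54 in CO, where it was called without MONO replicate 1 (0.61) or CO replicate 2 (0.59). In MM.1S, STC2 had 0 read pairs in MONO and TSW and 40, 34 and 20 in CO, where stromal markers were also present, and a stromal part in these read pairs was not tested.

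CO and TSW came from the same kind of well, with MM cells in both chambers, and differ in contact with HS5 cells and in the chamber. In RPMI8226 they also differ in the library feature of RPS14P3 and trnN described above. There this feature cannot be told apart from CO against TSW. In MM.1S, limma called none of the 29 ISR genes in CO against TSW, where 0.374% of all tested genes were called higher and 0.0394% lower. At an unadjusted p under 0.05, 16 were lower in CO and 1 was higher, while 2.59% and 1.84% of all tested genes were. With voom on recovered read pairs, 2 ISR genes were called lower and 0 higher, against 5 lower and 40 higher of all tested genes. Values in CO were lower for 26 of 29 ISR genes, 89.7%, and for 50.3% of all tested genes, and the median log2 fold change was -0.32. CHAC1 (-0.76, adjusted p = 0.102) and TRIB3 (-0.64, adjusted p = 0.0626) had the lowest values. Without MM.1S MONO replicate 1, which changes the shared estimate of the spread, 2 were called lower, and TRIB3 was among them (adjusted p = 0.0187). TRIB3 was also called without MONO replicate 3 (adjusted p = 0.0343) or CO replicate 2 (adjusted p = 0.0440).

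In RPMI8226, TRIB3 and PHGDH were called lower in CO than in TSW and no ISR gene was called higher, against 2.39% and 1.9% of all tested genes. At an unadjusted p under 0.05 there were 8 lower and 2 higher, against 24.4% and 15.99% of all tested genes. With voom 3 ISR genes were called lower and 0 higher, against 350 and 322 of all tested genes. The log2 fold change was -0.68 (SE 0.15, adjusted p = 0.00929) for TRIB3 and -0.75 (SE 0.17, adjusted p = 0.00897) for PHGDH. Neither call held without TSW replicate 1, with values of -0.44 and -0.58, or without CO replicate 2, with -0.52 and -0.47. Without the filter on low RPKM neither was called, at unchanged values (limma, adjusted p = 0.0803 for TRIB3 and 0.08 for PHGDH). With a loess correction for GC content and length TRIB3 was at -0.55, under the fold threshold. Of the 29 ISR genes, 24 had negative values (82.8%, against 56.5% of all tested genes). Stromal markers were called higher in CO than in TSW for 17 of 17 tested in MM.1S and 11 of 15 in RPMI8226. Most of them passed the filter through the CO libraries alone, since 15 of the 17 and 10 of the 15 had a mean under 1 over MONO and TSW, and 10 and 6 had no read pair there. These counts therefore follow from the choice of genes and show presence in CO only. What stromal RNA adds to or takes from the share of ISR transcripts in CO was not tested.

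**Figure D3:**
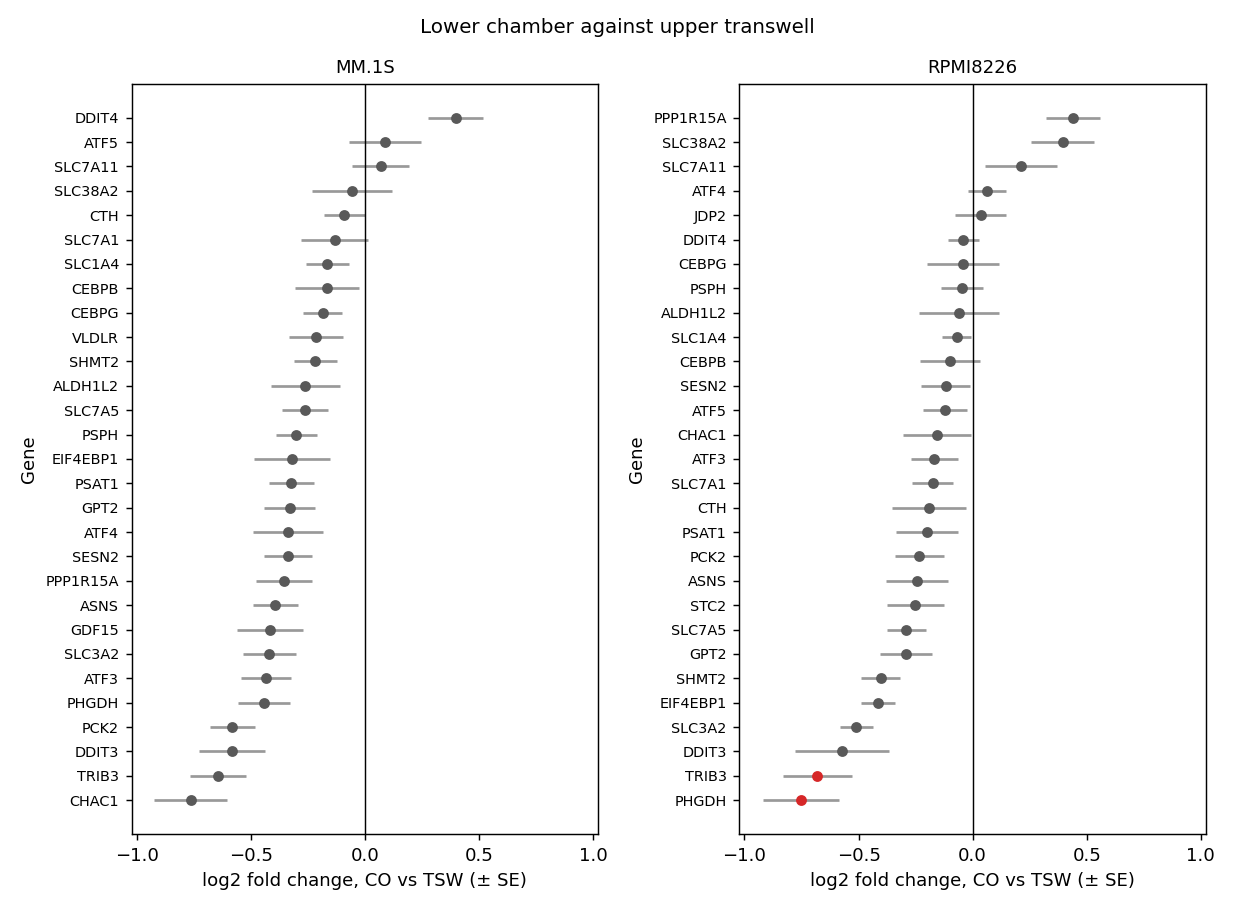
Log2 fold change of CO against TSW for the 29 ISR genes tested in each line, with bars of 1 SE from limma and called genes in red. Most points lie left of 0, and TRIB3 and PHGDH of RPMI8226 were the genes called.

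Whether a change differed between the lines was tested in a fit of all 15 libraries on the 27 ISR genes tested in both, as the fold change in RPMI8226 minus that in MM.1S. In TSW against MONO, 8 ISR genes had a larger value in RPMI8226 and 6 a smaller one, while 10.9% and 16% of 9397 genes did. In CO against MONO they were 7 and 5, against 11.3% and 20.6%. Differences between the lines were thus common outside the program as well. Of the 14 differences in TSW, 8 were called with every library left out in turn, and of the 12 in CO, also 8. CTH (2.01 in TSW and 1.91 in CO), PPP1R15A (1.35 and 2.15), CEBPB (0.86 and 0.93) and SLC1A4 (0.98 and 1.08) had the larger log2 fold change in RPMI8226. PSPH (-1.86 and -1.60) and SLC7A5 (-1.01 and -1.04) had the larger in MM.1S. These 6 held in both comparisons, DDIT4 and SLC7A11 in TSW, and ATF3 and SESN2 in CO. ATF4 did not pass, with differences of -0.50 (adjusted p = 0.0812) and -0.10 (adjusted p = 0.750).

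**Figure D4:**
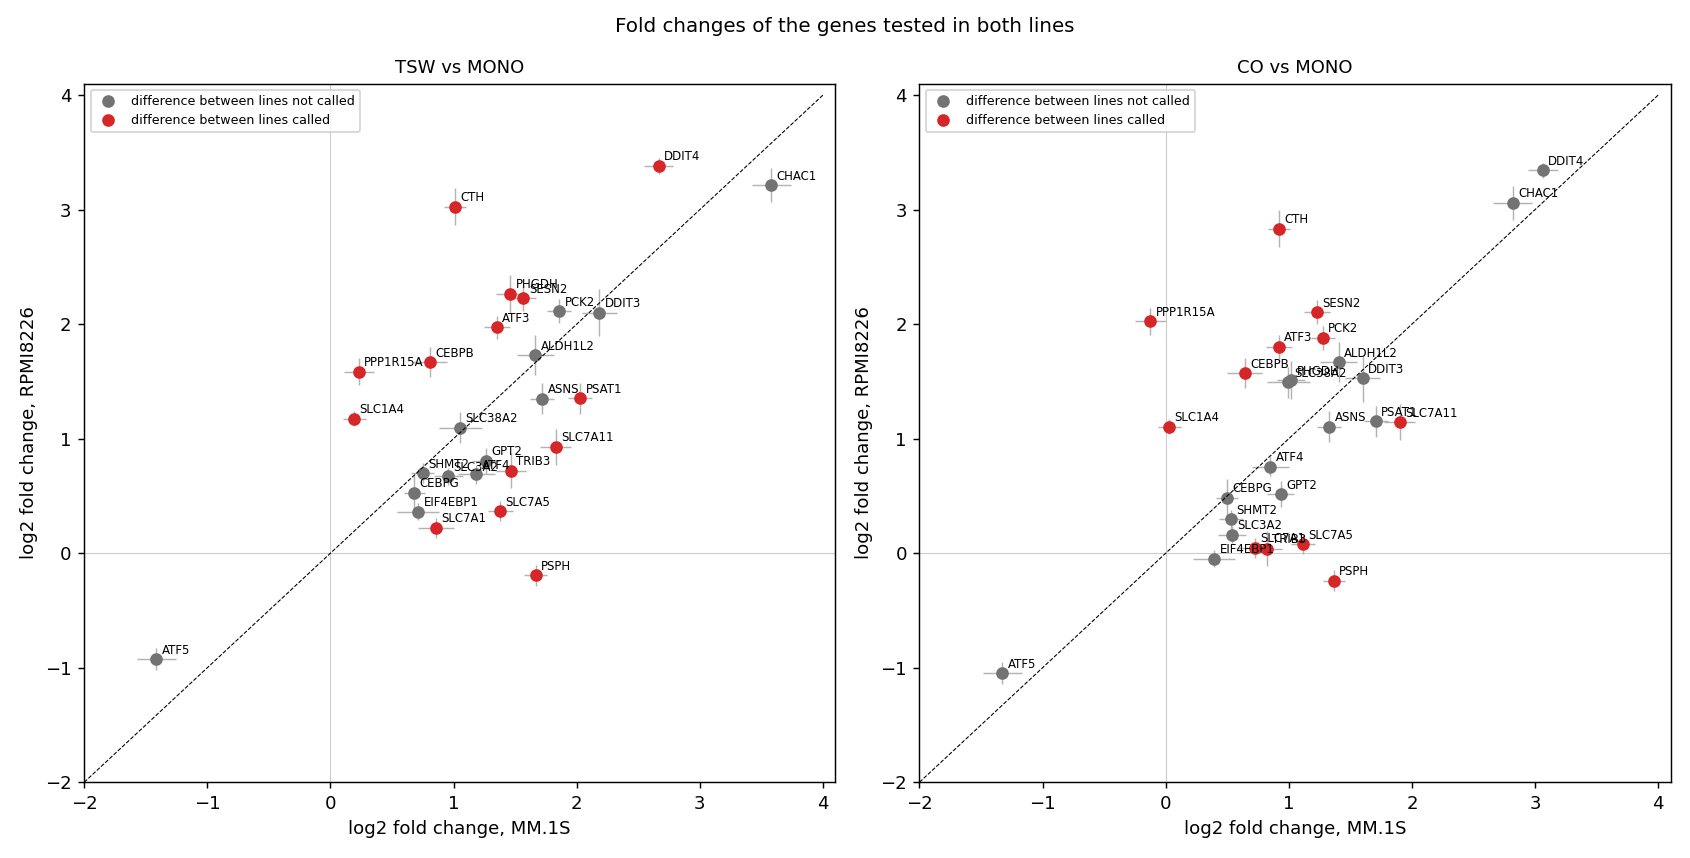
Log2 fold change in RPMI8226 (vertical) against that in MM.1S (horizontal) for the 27 ISR genes tested in both lines, in TSW against MONO on the left and CO against MONO on the right, with bars of 1 SE. The dashed line marks equal change, and genes called for a difference between the lines are red, with CTH and PPP1R15A above it and PSPH below it.

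Other genes of the pathway were taken from lists, and beside their calls stand the shares of all tested genes. The aminoacyl-tRNA synthetases charge tRNAs with amino acids. A chosen list of 12 of them, known targets of ATF4 and not the whole family, was described. Of these, 12 of 12 were called higher in TSW and 11 in CO of MM.1S, and 7 of 12 in each of TSW and CO of RPMI8226. The shares of all tested genes called higher were 6.48% and 7.13% in MM.1S and 14.5% and 16.4% in RPMI8226. The median log2 fold change of the synthetases was 0.92 and 0.76 in MM.1S and 0.97 and 0.70 in RPMI8226. The cysteinyl-tRNA synthetase CARS had RPKM values of 28.4, 24.7 and 24.8 in MONO and 79.04, 75.1 and 75.6 in TSW of MM.1S, and of 12.2 and 13.1 in MONO and 48.5 and 46.2 in TSW of RPMI8226. Its log2 fold change in TSW was 1.53 in MM.1S and 1.83 in RPMI8226, with no overlap of conditions. AARS (1.13 and 1.33), YARS (0.76 and 1.33) and SARS (1.05 and 1.29) were also called in TSW of both lines. The synthetases not called in either comparison of RPMI8226, named after their values were seen, were IARS, NARS, LARS, EPRS and TARS, and all 5 were called in TSW of MM.1S. Without MM.1S MONO replicate 1, EPRS (0.52) and LARS (0.56) were under the fold threshold there, and EPRS, LARS, NARS and TARS lost their calls in CO. Over the omission of each library in turn, the synthetases called higher were 10 to 12 in TSW and 8 to 12 in CO of MM.1S, and 7 and 6 to 7 in RPMI8226.

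Of 23 listed genes of the eIF2 kinases, eIF2B and the phosphatase, 21 were tested in MM.1S and 20 in RPMI8226. In MM.1S, limma called 1 higher in TSW and 0 in CO, with 0 lower in both, against 6.48% and 7.13% of all tested genes higher and 4.16% and 4.65% lower. The median log2 fold change was 0.08 and 0.07. At an unadjusted p under 0.05, TSW of MM.1S had 4 higher and 4 lower and CO had 6 higher and 6 lower. Of all tested genes 21.2% and 19.2% were in TSW, and 22.8% and 21.2% in CO. RPMI8226 had 2 called higher and 1 lower in TSW, and 2 higher and 3 lower in CO. Of all tested genes 14.5% and 17.9% were called in TSW and 16.4% and 22.9% in CO. PPP1R15B, the constitutive partner of the eIF2 phosphatase, was called at 0.63 in TSW of MM.1S and at 0.73 and 0.84 in TSW and CO of RPMI8226. The MM.1S call rests on MONO replicate 1, whose RPKM was the lowest (25.4, 40.6 and 41.9), and without it the value was 0.40, under the fold threshold. Without TSW replicate 2 or 3 the value stayed at 0.61, and the call was lost by the p alone (limma, adjusted p = 0.0518 and 0.0525). In CO of MM.1S, PPP1R15B (0.66 and 0.68) and IMPACT (0.60 and 0.66) were called higher without MONO replicate 2 or 3. Without MONO replicate 1, EIF2AK3 was called lower (-0.77, and -0.67 in TSW) and EIF2S2 higher in TSW (0.59). The counts near 0 thus depend on the MONO libraries. In RPMI8226 these counts of 20 genes were all under the shares of all tested genes. The kinase gene EIF2AK4 was called higher in TSW of RPMI8226 (0.67) and was at 0.57 in CO, under the fold threshold. DNAJC3 was called higher in CO (0.64) and was at 0.41 in TSW. The 3 genes called lower in CO of RPMI8226 were EIF2B1, EIF2B3 and EIF2B5, with log2 fold changes of -1.16, -1.01 and -0.70. They encode subunits of eIF2B, the exchange factor that phosphorylated eIF2 inhibits. EIF2B1 was also lower in TSW (-0.95).

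Other known targets of ATF4 and CHOP numbered 23, of which 21 were tested in each line. In MM.1S, 9 were called higher in TSW and 8 in CO, with 0 lower at the adjusted threshold and 0 and 0 lower at an unadjusted p under 0.05. Of all tested genes 6.48% and 7.13% were called higher, and 19.2% and 21.2% were lower at that unadjusted p. RPMI8226 had 7 called higher and 3 lower in TSW, against 14.5% and 17.9% of all tested genes, and 8 higher and 4 lower in CO, against 16.4% and 22.9%. With single libraries left out, those called higher numbered 8 to 10 in TSW and 6 to 8 in CO of MM.1S, and 6 to 9 and 7 to 8 in RPMI8226. INHBE, an activin subunit, had RPKM values of 0.364, 0.582 and 0.247 in MONO and 6.10, 6.77 and 5.94 in TSW of MM.1S, and of 0.526 and 0.277 in MONO and 30.2 and 18.1 in TSW of RPMI8226. It passed the filter through coculture in both lines, with 8, 27 and 8 read pairs in MONO of MM.1S and 16 and 10 in MONO of RPMI8226, and its log2 fold changes were 2.38 and 4.13. The arginine synthesis enzyme ASS1 (1.33 and 1.93 in TSW) and the glycine transporter SLC6A9 (1.64 and 1.33) rose in both lines, and ASS1 in MM.1S also passed through coculture, with 0.997, 0.596 and 0.891 in MONO. HMOX1, which degrades heme, went apart. Its RPKM was 141 and 148 in MONO, 5.87 and 6.24 in TSW and 4.78 and 4.95 in CO of RPMI8226, and 52.4, 51.3 and 54.4 in MONO, 72.3, 56.2 and 59.7 in TSW and 96.3, 144 and 109 in CO of MM.1S. It fell in RPMI8226 with log2 fold changes of -4.37 and -4.63, and rose in CO of MM.1S (1.11), where stromal markers were measured too. In TSW of MM.1S it was at 0.24, not called.

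Factors that can pair with ATF4 were tested for 9 genes in MM.1S and 8 in RPMI8226. In MM.1S, 5 were called higher in TSW and 4 in CO, and in RPMI8226 4 and 7, with 0 lower by limma in the 4 comparisons. Of all tested genes 6.48% and 7.13% were called higher in MM.1S, and 14.5% and 16.4% in RPMI8226. At an unadjusted p under 0.05, 1 and 0 were lower in TSW and CO of MM.1S, and 0 and 0 in RPMI8226, against 19.2%, 21.2%, 39.7% and 42.7% of all tested genes. When each library was left out, 4 to 5 in TSW and 4 to 5 in CO of MM.1S, and 4 and 6 to 7 in RPMI8226 were called higher. JUNB, an AP-1 factor, rose by 2.28 and 2.15 in TSW and CO of MM.1S and by 2.93 and 2.94 in RPMI8226. FOS (2.21 and 1.92 in TSW) and NFE2L1 (1.29 and 1.96), a regulator of proteasome genes, rose in both lines as well. FOS passed the filter through coculture, with MONO values of 0.154, 0.170 and 0.210 in MM.1S and 0 and 0.188 in RPMI8226, from at most 7 read pairs. MAF, a factor of some MM tumors, was called in both comparisons of MM.1S (1.06 and 1.36) and in CO of RPMI8226 (0.71).

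The IRE1 and ATF6 arms, the other branches of the unfolded protein response, were tested for 19 genes. In MM.1S, 6 were called higher and 0 lower in TSW (5 lower at an unadjusted p under 0.05), and 5 higher and 1 lower in CO. The shares of all tested genes were 6.48% higher and 4.16% lower in TSW (19.2% lower at the unadjusted p), and 7.13% and 4.65% in CO. Without MM.1S MONO replicate 1, SEL1L lost its calls in TSW (0.56) and CO (0.34), and ERN1 its call in CO (0.40), which left 3 higher there. The CO calls of SEL1L and ERN1 were also lost without any 1 of the 3 CO libraries, with an adjusted p over 0.05 each time. Their values then stayed near those of all libraries (0.62 and 0.72), at 0.57 to 0.66 for SEL1L and 0.71 to 0.73 for ERN1. The medians of log2 for the list were 0.04 and -0.08. In RPMI8226, 10 were higher and 0 lower in TSW (0 lower at an unadjusted p under 0.05), and 9 higher and 1 lower in CO. All tested genes had 14.5% higher and 17.9% lower in TSW (39.7% lower at the unadjusted p), and 16.4% and 22.9% in CO. Each library left out in turn gave 5 to 6 in TSW and 3 to 5 in CO of MM.1S, and 10 and 9 in RPMI8226 called higher, with 0 to 1 and 0 to 2 lower in MM.1S and 0 and 0 to 1 in RPMI8226. The list had medians in RPMI8226 of 0.65 and 0.36. EDEM1, which sends misfolded glycoproteins to degradation, rose by 1.71 and 1.60 in TSW. XBP1, the target of IRE1 and a plasma cell factor, had RPKM values of 438, 422 and 404 in MONO and 790.1, 792 and 732 in TSW of MM.1S. Its log2 fold change there was 0.87, and 1.24 in TSW of RPMI8226. HERPUD1 was called in TSW of both lines (0.91 and 1.17), and DNAJB9 in RPMI8226 (1.07 in TSW and 1.61 in CO). HSPA5 (BiP), the main chaperone of the endoplasmic reticulum, named after its values were seen, was not called in these comparisons, with log2 fold changes of 0.20 and -0.01 in MM.1S and 0.49 and 0.30 in RPMI8226.

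**Figure D5:**
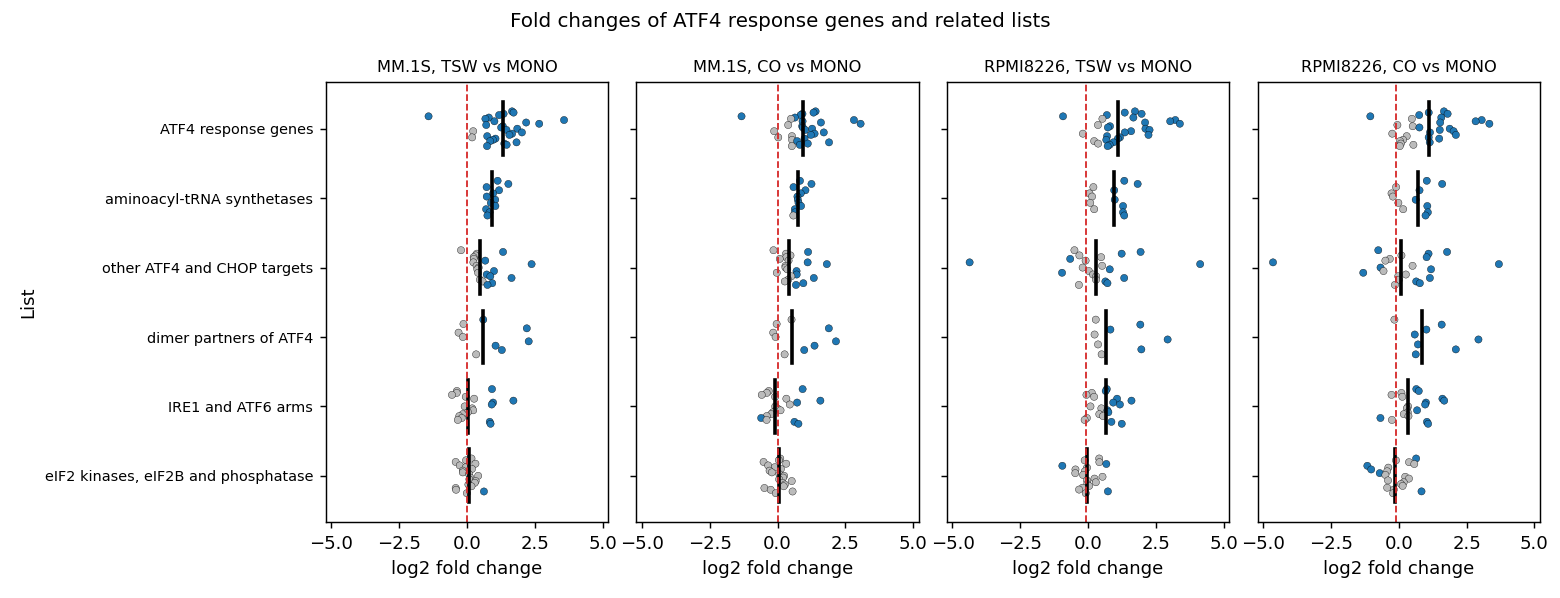
Log2 fold changes against MONO of the ISR genes and 5 related lists (vertical axis) in the 4 comparisons with MONO, with a point for each tested gene, blue where called and gray where not, a black bar at the median of the list and a red dashed line at the median of all tested genes. The medians of the ISR genes and the synthetases lie right of the dashed line in each comparison, and that of the eIF2 kinases with eIF2B and the phosphatase lies near it.

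Plasma cell markers were described for the same libraries, and they moved in both directions. Of 9 tested in MM.1S, 3 were called higher and 2 lower in TSW, and 2 and 2 in CO, and of 8 in RPMI8226, 6 and 2 in each. The shares of all tested genes called higher and lower were 6.48% and 4.16% in TSW and 7.13% and 4.65% in CO of MM.1S, and 14.5% and 17.9%, then 16.4% and 22.9% in RPMI8226, where 2 lower of 8 is near the share of all genes. TNFRSF17 (BCMA) fell, with a log2 fold change of -1.80 and -2.14 in TSW and CO of MM.1S and of -3.50 and -3.83 in RPMI8226. PRDM1, which holds the plasma cell state, rose by 0.75 and 0.68 in MM.1S and by 0.94 and 1.12 in RPMI8226. Without MM.1S MONO replicate 1 its CO value in MM.1S was 0.53, under the fold threshold. IRF4 was called lower in RPMI8226 (-0.94 and -0.93), and JCHAIN lower in MM.1S (-0.85 and -0.91) and higher in RPMI8226 (0.80 and 1.02). CD38, the antigen of the sort, had log2 fold changes of -0.13 and 0.13 in MM.1S, not called, and rose by 1.46 and 1.67 in RPMI8226. Their part in the ISR values was not tested.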

How the data were processed

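RNA-Seq of 15 libraries of the established MM cell lines MM.1S and RPMI8226 was used, grouped by the column names. The authors turned read pairs on RefSeq genes into RPKM and deposited log2(RPKM + 1), to which 0.0001 is added throughout. The design had assumed RPKM and the files held log2 of it. The offset of 0.0001 was subtracted. The authors compared conditions with edgeR on counts, which was not used here. Spacing between values gave back whole read pairs, with 99.972% within 0.05 of a whole number, which served for depth and voom.

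Testing used limma 3.58.1 under R 4.3.3 (lmFit, contrasts.fit and eBayes with a trend) on log2(RPKM + 1), with the 3 conditions of a line in 1 fit, on genes whose RPKM averaged 1 or more. Calls needed p under 0.05 after Benjamini-Hochberg adjustment, together with a fold over 1.5. The difference between the lines was tested in a fit of 15 libraries. Tested on simulated data, the script found 191 of 200 changed genes at the size of MM.1S and 186 at that of RPMI8226, and called 1 and 3 unchanged genes. In data without changes it called 0 and 3 genes. The simulation gave all genes the same dispersion, balanced raised and lowered genes past the fold threshold, and had no outlying library. These counts therefore check the script and do not give error rates for the libraries used here. Tables were handled in Python 3.11.15 with pandas 2.3.3 and numpy 2.4.6, and figures drawn with matplotlib 3.10.9.

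Members and lists were chosen with earlier results of these data known. Values by library are given for ATF4, ATF3, DDIT3, CEBPB, CHAC1, TRIB3, ASNS, PSAT1, DDIT4, SESN2, SLC7A11 and PPP1R15A, and for members among the 8 with the largest log2 fold change of either sign in TSW against MONO of a line. Up to 4 genes with the largest log2 fold change among calls are named from each other list, as are the most abundant stromal marker and THY1. ATF5 and other genes outside these rules were named after their values were seen. EIF2AK2, PPP1CB, ADM2, JUND, FOSL1 and SDC1 of the lists were not analysed here.

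Alternatives were quantile normalization or median-of-ratios scaling, a loess correction for GC content and length, voom on recovered pairs, a pseudocount of 0.1, filters at 0 or 5 for the mean RPKM, a replicate block, fits of 2 conditions, eBayes with no trend, calls by p alone, and the omission of each library in turn.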

Additional observations from a re-analysis of the deposited data

Results flagged for a closer look

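These ISR genes were picked out because their fold changes differed between the lines by the limma test of the difference, at an adjusted p under 0.05 and over 1.5 times. Values are the log2 fold change in RPMI8226 minus that in MM.1S. In TSW against MONO the larger log2 fold change was in RPMI8226 for CTH (2.01), PPP1R15A (1.35), SLC1A4 (0.98), CEBPB (0.86), PHGDH (0.80), DDIT4 (0.72), SESN2 (0.66) and ATF3 (0.62), and in MM.1S for PSPH (-1.86), SLC7A5 (-1.01), SLC7A11 (-0.90), TRIB3 (-0.74), PSAT1 (-0.68) and SLC7A1 (-0.63). In CO against MONO the larger log2 fold change was in RPMI8226 for PPP1R15A (2.15), CTH (1.91), SLC1A4 (1.08), CEBPB (0.93), ATF3 (0.88), SESN2 (0.88) and PCK2 (0.60), and in MM.1S for PSPH (-1.60), SLC7A5 (-1.04), TRIB3 (-0.78), SLC7A11 (-0.76) and SLC7A1 (-0.68). Not all of these calls held under every alternative. In TSW those of CTH, PPP1R15A, SLC1A4, CEBPB, DDIT4, PSPH, SLC7A5 and SLC7A11 did. In CO those of PPP1R15A, CTH, SLC1A4, CEBPB, ATF3, SESN2, PSPH and SLC7A5 did. Which of the features that set the lines apart goes with these differences was not tested.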

How the results depend on the processing

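Of the counts and medians of the ISR genes under the alternatives, 445 stayed within their limits, 37 moved and 1 reversed. Of the values of single genes in the tally, 1916 kept direction and side of the threshold, 44 lost the call, 7 gained it and 3 changed sign. That tally did not take in every ISR gene. Further calls gained or lost with a library left out are given above for CEBPG, EIF4EBP1, GPT2, SHMT2, SLC3A2, SLC7A1, STC2 and VLDLR.

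The median log2 fold change of the ISR genes in MM.1S TSW against MONO was 1.43 with a pseudocount of 0.1, 1.43 with voom and 1.19 without the filter. In MM.1S CO against MONO it was 1.01 with a pseudocount of 0.1, 1.01 with voom and 1.01 with a loess correction for GC and length. Without the filter RPMI8226 TSW and CO against MONO gave 0.81 and 0.76. With a mean RPKM of at least 5, which leaves out ATF5 in MM.1S, 0 ISR genes were called lower in MM.1S TSW against MONO and 0 in CO against MONO. Without the fold threshold 2 were lower in RPMI8226 CO against MONO. In MM.1S CO against TSW the ISR genes called lower were 1 without the filter, 1 with median-of-ratios scaling, 3 with quantile normalization, 2 with only the 2 conditions in the fit, 1 without the fold threshold and 2 with voom. In RPMI8226 CO against TSW they were 0 without the filter, 6 without the fold threshold, with 1 higher, and 1 with the loess correction. The log2 fold change of PPP1R15A in MM.1S CO against MONO, not called, changed sign to 0.0337 with the loess correction for GC and length. The cause was not tested.

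With each library left out in turn, the ISR genes called and their median log2 fold change had these lowest and highest values. MM.1S TSW against MONO had 25 to 26 higher, 1 lower and a median of 1.22 to 1.39. MM.1S CO against MONO had 21 to 23 higher, 1 lower and a median of 0.86 to 0.996. MM.1S CO against TSW had 0 higher, 0 to 2 lower and a median of -0.36 to -0.26. RPMI8226 TSW against MONO had 22 to 24 higher, 1 lower and a median of 0.84 to 1.19. RPMI8226 CO against MONO had 18 to 21 higher, 1 lower and a median of 1.002 to 1.26. RPMI8226 CO against TSW had 0 to 1 higher, 0 to 4 lower and a median of -0.32 to -0.04. The difference between the lines in TSW against MONO had 5 to 9 higher, 3 to 7 lower and a median of -0.37 to 0.13. The difference between the lines in CO against MONO had 6 to 8 higher, 2 to 6 lower and a median of -0.13 to 0.11. The median difference in TSW turned positive, 0.13, without RPMI8226 TSW replicate 2. TRIB3 in RPMI8226 CO against MONO, not called, ranged from -0.12 to 0.20, with -0.05 without MONO replicate 1 and -0.12 without CO replicate 1. Where RPMI8226 lost a library, the lone library of that condition was assumed by limma to vary like the others. The cause was not tested.

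With replicate number as a replicate block, the counts of ISR genes called did not move: 26 higher and 1 lower in MM.1S TSW against MONO, 21 higher and 1 lower in MM.1S CO against MONO, 23 higher and 1 lower in RPMI8226 TSW against MONO, 18 higher and 1 lower in RPMI8226 CO against MONO, 0 higher and 2 lower in RPMI8226 CO against TSW. Deviations of same-numbered libraries had correlations of -0.38 to 0.286 in MM.1S and 0.164 to 0.271 in RPMI8226. In MM.1S a library correlated best with its own number in 7 of 18 cases, where 6 would come by chance, which is no hint of pairing. By the methods a coculture well held both TSW and CO cells, so libraries of these conditions may share wells. The labels name no shared batch or well, so the numbers are not taken to pair libraries. CO against TSW was tested as if its libraries were independent. In RPMI8226, 2 libraries in a condition are too few to tell.

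Over all tested genes, calls without the fold threshold were 1459 higher and 1310 lower in TSW and 1647 higher and 1528 lower in CO against MONO of MM.1S, where the threshold left 658 higher and 422 lower and 724 higher and 472 lower. In RPMI8226 they were 2996 higher and 3925 lower in TSW, 3123 higher and 4299 lower in CO and 1045 higher and 1804 lower in CO against TSW, with 1500 higher and 1852 lower, 1693 higher and 2363 lower and 196 higher and 247 lower past the threshold. Median-of-ratios scaling turned this balance to 1710 higher and 1538 lower in TSW, 1994 higher and 1925 lower in CO and 231 higher and 198 lower in CO against TSW, so the excess of lower calls depends on the scaling. MM.1S CO against TSW had 38 higher and 4 lower, 128 higher and 6 lower without the filter and 5 higher and 2 lower with a mean RPKM of at least 5. RPMI8226 CO against TSW had 322 higher and 350 lower with voom and 159 higher and 117 lower with the loess correction. Of its calls 44.2% were higher, and 59.7% with quantile normalization. For the difference between the lines the share of calls with a larger value in RPMI8226 moved from 35.5% to 48.5% with quantile normalization and 48.3% with median-of-ratios scaling in CO, and from 40.5% to 50.5% with median-of-ratios scaling in TSW. Depth limits genes with few read pairs, such as NUPR1 in both lines and CBS and GDF15 in MONO of MM.1S.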
